A study of Mus musculus with 8 samples.

Results

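Igsf1 and 7 further genes of thyroid hormone signalling were followed in the nucleus accumbens (NAc) of 8 male C3H/HeN mice: Trh, Trhr, Thra, Thrb, Dio2, Slco1c1 and Crym. The members were chosen by name, with the difference between the groups already known for Igsf1 and Trhr, which stand in the study's own list of changed genes. Every probe that carries a member's name on the array was read, which gave 13 of 55681 probes. The 4 maternal separation (MS) mice were parted from their dams each day between postnatal days 2 and 14, while the dams received unpredictable stress. The 4 control mice stayed with undisturbed dams. All 8 were C3H/HeN males weaned on day 21 that had gone through an operant task for a palatable food as adults and were fasted before sampling. The labels give no age at sampling. The NAc was punched from frozen slices, and the RNA of each mouse was labelled with Cy3 and hybridised to 1 array. In each group, 3 of the 4 mice share the first part of their animal number, and the labels do not say whether it marks a cage, a dam or neither, so the spread between mice may be smaller than that between independent litters.

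Thyroid hormone reaches the brain along a chain of steps. Thyrotropin-releasing hormone, made by hypothalamic neurons from the Trh precursor, acts through the receptor Trhr on the pituitary, which drives the thyroid gland to release mostly thyroxine. Thyroxine is carried across the blood-brain barrier by transporters such as Slco1c1, is converted to the active hormone triiodothyronine by the deiodinase Dio2, mostly in astrocytes and tanycytes, and acts on the nuclear receptors Thra and Thrb, while Crym is a cytosolic protein that binds triiodothyronine. Igsf1 encodes a glycoprotein with immunoglobulin domains at the cell membrane, and its loss in humans causes X-linked central hypothyroidism. Trh and Trhr are also made by neurons outside this axis, and both receptors for the hormone are found in neurons throughout the forebrain.

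Igsf1 is read by 3 probes that lie in different parts of the gene and gave very different signals, so a 30-base stretch of each is shown with its place in build mm9, as the scanner files give it. The capitals in the second stretch mark AATAAA, the common polyadenylation signal. The first, for transcript NM_177591, lies at chrX:47135787-47135846 on the minus strand, the second, for NM_183335, at chrX:47139526-47139585, and the third, for NM_177915, at chrX:47146908-47146967. The files do not annotate which exon, or whether coding or untranslated sequence, a probe reads.
Igsf1 probe A_55_P2059864: caagctctacaggtcaagctgtttcctcta
Igsf1 probe A_55_P2059860: catatatgtctgAATAAAatgcatatagcg
Igsf1 probe A_51_P499082: tcaatgaggtagagttgcttgacaatttcc
The probes of Trhr, at chr15:44067399-44067458 on the plus strand, and Trh, at chr6:92192061-92192120 on the minus strand, hold AATAAA as well, and the last 30 bases of each are shown because they are the ligand and the receptor of the same pathway.
Trhr probe A_55_P2126502: tgtatgtatgagcAATAAAgtatcaaactg
Trh probe A_55_P2071349: tgttaatctcaatgacAATAAAatatatcc
AATAAA was searched as written, on the strand of the probe, and is in 3 of the 13 member probes, against 10.06% of all 55681 probes.

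Thyroid hormone receptors bind DNA at copies of the hexamer AGGTCA, so the 250 bases before each annotated start were searched for it on both strands (AGGTCA or TGACCT) in RefSeq promoters of build GRCm38.p6. The table held 8 promoters of 5 members (3 of Igsf1, both of Thrb, and 1 each of Trh, Dio2 and Slco1c1). The hexamer is in 3 of these, against 14.0% of all 32851 promoters of the table. They are shown because they hold the hexamer, which is in capitals. It begins 188 bases before the start in Igsf1 (chrX:49788244-49788493, minus strand), 184 bases before it in Thrb (chr14:17660710-17660959, plus strand) and, as TGACCT, 57 bases before it in Trh (chr6:92244651-92244900, minus strand).
Igsf1 promoter: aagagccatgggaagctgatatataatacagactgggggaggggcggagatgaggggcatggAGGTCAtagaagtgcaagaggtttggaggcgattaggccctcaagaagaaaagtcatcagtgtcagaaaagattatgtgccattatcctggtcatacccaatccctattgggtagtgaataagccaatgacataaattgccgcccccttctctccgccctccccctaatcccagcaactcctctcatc
Thrb promoter: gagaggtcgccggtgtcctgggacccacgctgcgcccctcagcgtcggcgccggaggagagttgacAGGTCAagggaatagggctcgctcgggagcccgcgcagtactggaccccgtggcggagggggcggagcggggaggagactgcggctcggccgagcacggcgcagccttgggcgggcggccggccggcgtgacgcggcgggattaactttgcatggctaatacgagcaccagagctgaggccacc
Trh promoter: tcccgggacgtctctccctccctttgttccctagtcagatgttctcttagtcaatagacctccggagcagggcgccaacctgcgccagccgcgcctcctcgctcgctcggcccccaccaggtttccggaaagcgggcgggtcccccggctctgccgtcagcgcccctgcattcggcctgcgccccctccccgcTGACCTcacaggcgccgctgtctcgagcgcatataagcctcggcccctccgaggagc
A match is a description of these letters only. Binding was not measured here.

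All values below are log2 levels, the background-corrected signal of a probe over the 75th percentile of its own array, so that 0 is the level of that percentile and 1 unit is a doubling of the signal. Levels are compared between mice for 1 probe at a time, never between probes. The exceptions are the summed levels of the marker lists, which are weighted to their brightest probes. The arrays held 57.3% to 69.7% of probes well above background, the highest share in control mouse 4, and no saturated spot. Probes called well above background by the scanner software in 4 or more mice entered the limma fit (33111 probes), and 1 of them (0.00302%) passed an adjusted p of 0.05. That probe, named after its values were seen, reads Lhx5, a LIM homeobox factor of the developing forebrain. It was well above background in no MS mouse and in 4 control mice, so it entered the fit through the control mice alone. The signal was at least 2.81-fold higher in control mice (limma, adjusted p = 0.0074). That p rests on MS values at background and is given as a description only. The groups did not overlap for 8.67% of the probes tested, 4.91% with every MS mouse lower and 3.76% with every MS mouse higher. Of 22759 genes, each read by its brightest tested probe, 8.89% did not overlap.

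Igsf1 was lower in all 4 MS mice than in any control mouse, by the largest difference among the members. Its bright probe, A_55_P2059864, gave 0.90, -0.13, 0.07 and 0.32 in MS mice 1 to 4, against 1.78, 2.14, 1.73 and 2.57 in control mice 1 to 4. The highest MS mouse was thus 0.83 below the lowest control mouse, and MS mouse 1 and control mouse 4 stood at the upper end of their groups. The means were 0.29 ± 0.45 in MS mice and 2.05 ± 0.39 in control mice (SD, n = 4 each), a difference of -1.77 (SE 0.26), or a signal 3.40 times as high in control mice. Among the 33111 probes tested, 23 (0.0695%) had a more negative difference. This difference is one of those by which the members were selected, so it is given as a description, with no test.

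All 8 arrays lay on 1 slide in 2 rows of 4, with both groups in each row and 1 mouse of each group in each column. The Igsf1 difference was -1.57 within the first row and -1.96 within the second. Within the 4 columns it was -1.71, -0.83, -1.82 and -2.71, each from a single mouse per group.

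The other Igsf1 probes were close to the array background and entered no fit. A_55_P2059860 (NM_183335) gave -5.72, -5.49, -5.46 and -2.33 in MS mice 1 to 4, against -5.17, -5.68, -5.27 and -4.14 in control mice 1 to 4. It was well above background in MS mouse 4 and control mouse 4 only. A_51_P499082 (NM_177915) gave -6.92, -5.71, -7.14 and -7.24 in MS mice, against -5.63, -5.94, -6.96 and -4.66 in control mice, and was well above background in control mouse 4 alone. The groups overlapped for both probes, and no fold is given for them. The lower Igsf1 signal in MS mice therefore rests on 1 of 3 probes.

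**Figure D1:**
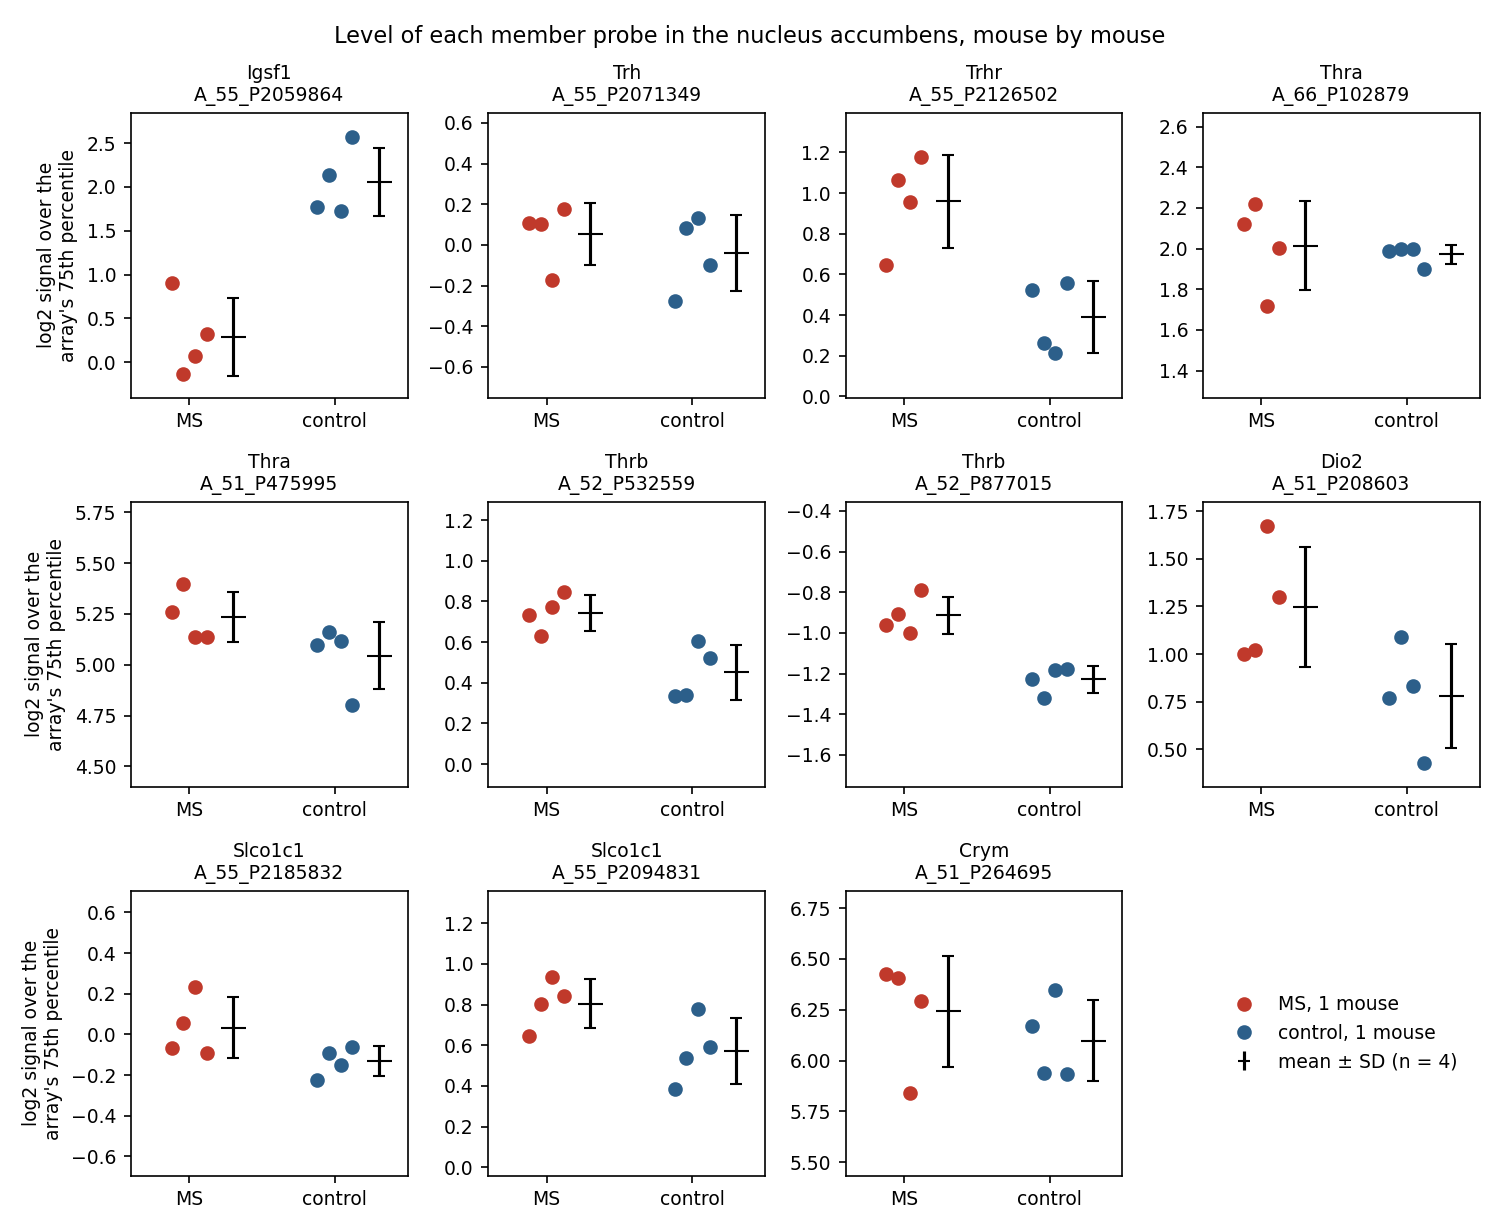
Log2 level of the 11 member probes that entered the fit (y axis, log2 signal over the array's 75th percentile, each panel on its own scale), 1 point per mouse, MS mice left and control mice right, with the mean ± SD of 4 mice beside the points. Igsf1 lies lower in every MS mouse than in any control mouse, Trhr and both Thrb probes lie higher, and the other panels overlap.

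Trh, the gene of the releasing hormone, showed no separation of the groups. It gave 0.11, 0.11, -0.17 and 0.18 in MS mice 1 to 4, against -0.28, 0.08, 0.13 and -0.10 in control mice 1 to 4. The difference was 0.09 (SE 0.12), smaller than the spread within either group. The probe was well above background in all 8 mice.

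Trhr, the G protein-coupled receptor for this hormone, was higher in every MS mouse than in any control mouse. It gave 0.65, 1.06, 0.96 and 1.18 in MS mice 1 to 4, against 0.53, 0.26, 0.21 and 0.56 in control mice 1 to 4. The gap between the lowest MS mouse, mouse 1, and the highest control mouse, mouse 4, was 0.09. The means were 0.96 ± 0.23 in MS mice and 0.39 ± 0.18 in control mice (SD, n = 4 each), a difference of 0.57 (SE 0.13). It was 0.46 within the first slide row and 0.68 within the second, and lay between 0.43 and 0.91 within the 4 columns. The Igsf1 and Trhr differences thus had opposite signs in these mice.

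Slco1c1, the thyroxine transporter of brain capillaries and astrocytes, is read by probes at chr6:141517875-141517934 and chr6:141518164-141518223 (mm9). The brighter probe, A_55_P2094831, gave 0.64, 0.80, 0.93 and 0.84 in MS mice 1 to 4, against 0.38, 0.54, 0.78 and 0.59 in control mice 1 to 4. The groups overlapped through control mouse 3, and the difference was 0.23 (SE 0.10). The other probe, A_55_P2185832, ranged between -0.09 and 0.23 in MS mice and between -0.22 and -0.06 in control mice, a difference of 0.16 (SE 0.09). Over the 8 arrays the probes correlated at r = 0.71, as a description of how far they read the same changes.

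Dio2, which makes triiodothyronine from thyroxine, gave 1.0, 1.02, 1.67 and 1.30 in MS mice 1 to 4, against 0.77, 1.09, 0.83 and 0.43 in control mice 1 to 4 (A_51_P208603, chr12:91963235-91963294). MS mouse 3 was the highest and control mouse 4 the lowest, and control mouse 2 lay above MS mice 1 and 2. The difference was 0.47 (SE 0.18), but it was 0.08 within the first slide row and 0.86 within the second.

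Thra, the receptor that carries most triiodothyronine binding in the brain, is read by a downstream probe and by one upstream of it that spans 807 bases of the genome (chr11:98617475-98618281), far more than its own length, so that it crosses an intron. The downstream probe, A_51_P475995 at chr11:98626356-98626415, gave 5.26, 5.40, 5.14 and 5.14 in MS mice 1 to 4, against 5.10, 5.16, 5.12 and 4.80 in control mice 1 to 4, a difference of 0.19 (SE 0.10). Control mouse 4 was the lowest, and the groups overlapped. The probe across the intron, A_66_P102879, gave 2.12, 2.22, 1.72 and 2.00 in MS mice, against 1.99, 2.00, 2.00 and 1.90 in control mice, a difference of 0.04 (SE 0.11). The probes correlated at r = 0.61 over the 8 arrays. Which of the receptor's splice forms each reads is not annotated in the files.

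Thrb, the other receptor for the hormone, was higher in every MS mouse than in any control mouse with both of its probes, by a modest amount. A_52_P532559 (chr14:18868800-18868859) gave 0.73, 0.63, 0.77 and 0.84 in MS mice 1 to 4, against 0.33, 0.34, 0.61 and 0.52 in control mice 1 to 4. The gap between the groups was only 0.03, between MS mouse 2 and control mouse 3, and the difference was 0.29 (SE 0.09). A_52_P877015 (chr14:18869432-18869491) gave -0.96, -0.91, -1.0 and -0.79 in MS mice, against -1.23, -1.32, -1.18 and -1.18 in control mice, with a gap of 0.18 and a difference of 0.31 (SE 0.07). The probes lie close together in the gene and correlated at r = 0.88, so they are no independent evidence of each other. Within the slide rows the difference lay between 0.24 and 0.34 for both probes.

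Crym, the cytosolic binding protein of triiodothyronine, had a difference of 0.14 (SE 0.15) between overlapping groups (A_51_P264695, chr7:127329970-127330029). It gave 6.42, 6.41, 5.84 and 6.29 in MS mice 1 to 4, against 6.17, 5.94, 6.35 and 5.93 in control mice 1 to 4. MS mouse 3 was the lowest of all.

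Of the 11 member probes tested, 10 had a positive difference and 1, Igsf1, a negative one. Their median difference was 0.19, beside 0.0023 over all 33111 probes, of which the 5th percentile was -0.43 and the 95th 0.32. The groups did not overlap for 4 of the 11, of which 3 were higher in MS mice (Trhr and both Thrb probes) and 1 lower (Igsf1), beside 8.67% of all probes tested, 3.76% higher and 4.91% lower. The members were picked by name with these values known, so nothing is read from that share. No member passed an adjusted p of 0.05 over all probes in this setting, but that depended on the processing. Igsf1 and Trhr passed it with normexp background correction, with the deposited values and with trend and robust moderation. Igsf1 alone passed it with median scaling and among probes well above background in all 8 mice. Both were already in the study's list of changed genes when the members were chosen, so these passes are no independent support.

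The other genes of the pathway, 53 in 7 lists drawn from textbook roles, had differences in both directions. Of the 39 that were bright enough to be tested, 21 had a positive and 18 a negative difference, with a median of 0.02. By limma 0 of 39 passed the threshold, the lowest adjusted p being 0.20. An unadjusted p under 0.05 was found for 8 of the 39, each read by 1 probe, beside 14.1% (4655) of all 33111 probes. The lists were chosen with earlier results of these data known, so nothing is read from that share. The groups did not overlap for 1 gene higher in MS mice, Ncoa3, and 1 lower, Ptgds, beside the 8.89% of all genes.

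In the list of the releasing hormone and the pituitary axis, 2 of 8 genes were tested. Trhr2, the other receptor for the hormone in rodents, had a difference of -0.05 (SE 0.14), and Trhde, the ectoenzyme that breaks the hormone down, one of -0.27 (SE 0.13). Pituitary genes were not tested because their probes lay at background. Tshb, Prl, Gh and Pou1f1 were well above background in no mouse, and Cga and Tshr in 1 control mouse each.

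Among thyroid hormone transporters, 4 of 5 genes were tested, with 2 positive and 2 negative differences. Slc3a2, the heavy chain shared by amino acid transporters that also carry the hormone, differed by -0.08 (SE 0.07). None of the 3 plasma binding proteins (Ttr, Serpina7, Alb) was bright enough to test, and Ttr, also the main product of the choroid plexus, was well above background in 1 control mouse only.

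Around deiodination, 5 of 6 genes were tested, 3 with positive and 2 with negative differences. Usp20 and Usp33, deubiquitinases that stabilise Dio2, differed by 0.00 (SE 0.06) and 0.08 (SE 0.08). The Usp20 value is that of the brighter of 2 tested probes, and the mean over both was 0.16. Dio3, which inactivates the hormone, averaged -1.83 ± 0.81 in MS mice and -1.23 ± 0.15 in control mice (SD, n = 4 each), and the groups overlapped (limma, difference -0.60, SE 0.35, adjusted p = 0.49).

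All 15 receptor partners and cofactors were tested, with 10 positive and 5 negative differences. Ncoa3, a coactivator of nuclear receptors, averaged 3.29 ± 0.05 in MS mice and 3.08 ± 0.07 in control mice (SD, n = 4 each), with no overlap but an adjusted p of 0.22 (limma, difference 0.22, SE 0.07). Its other probe had a difference of opposite sign. Rxrg, the retinoid X receptor of striatal neurons and a dimer partner of both thyroid receptors, averaged 5.16 ± 0.28 in MS mice and 4.73 ± 0.25 in control mice (SD, n = 4 each) and did not pass the test (limma, difference 0.43, SE 0.17, adjusted p = 0.30).

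Of the 9 genes known to respond to thyroid hormone in the brain, all were tested, 4 with positive and 5 with negative differences. Among the negative ones, Mbp, a myelin protein, differed by -0.23 with its brightest probe, but both of its other probes had a positive difference and the mean over its probes was 0.07. Ptgds, a prostaglandin synthase of the meninges and oligodendrocytes, averaged 5.81 ± 0.14 in MS mice and 6.10 ± 0.07 in control mice (SD, n = 4 each), with no overlap (limma, difference -0.29, SE 0.09, adjusted p = 0.20). Rasd2, a small GTPase of the striatum, had a difference of 0.44 (SE 0.25) between overlapping groups. The other positive ones, Klf9, Nrgn and Camk4, differed by 0.35 (SE 0.12), 0.32 (SE 0.22) and 0.31 (SE 0.12), and their groups overlapped as well. Of the 7 thyroid gland genes, 4 had a tested probe, and Slc26a4, an anion exchanger, differed by 0.18 (SE 0.44).

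**Figure D2:**
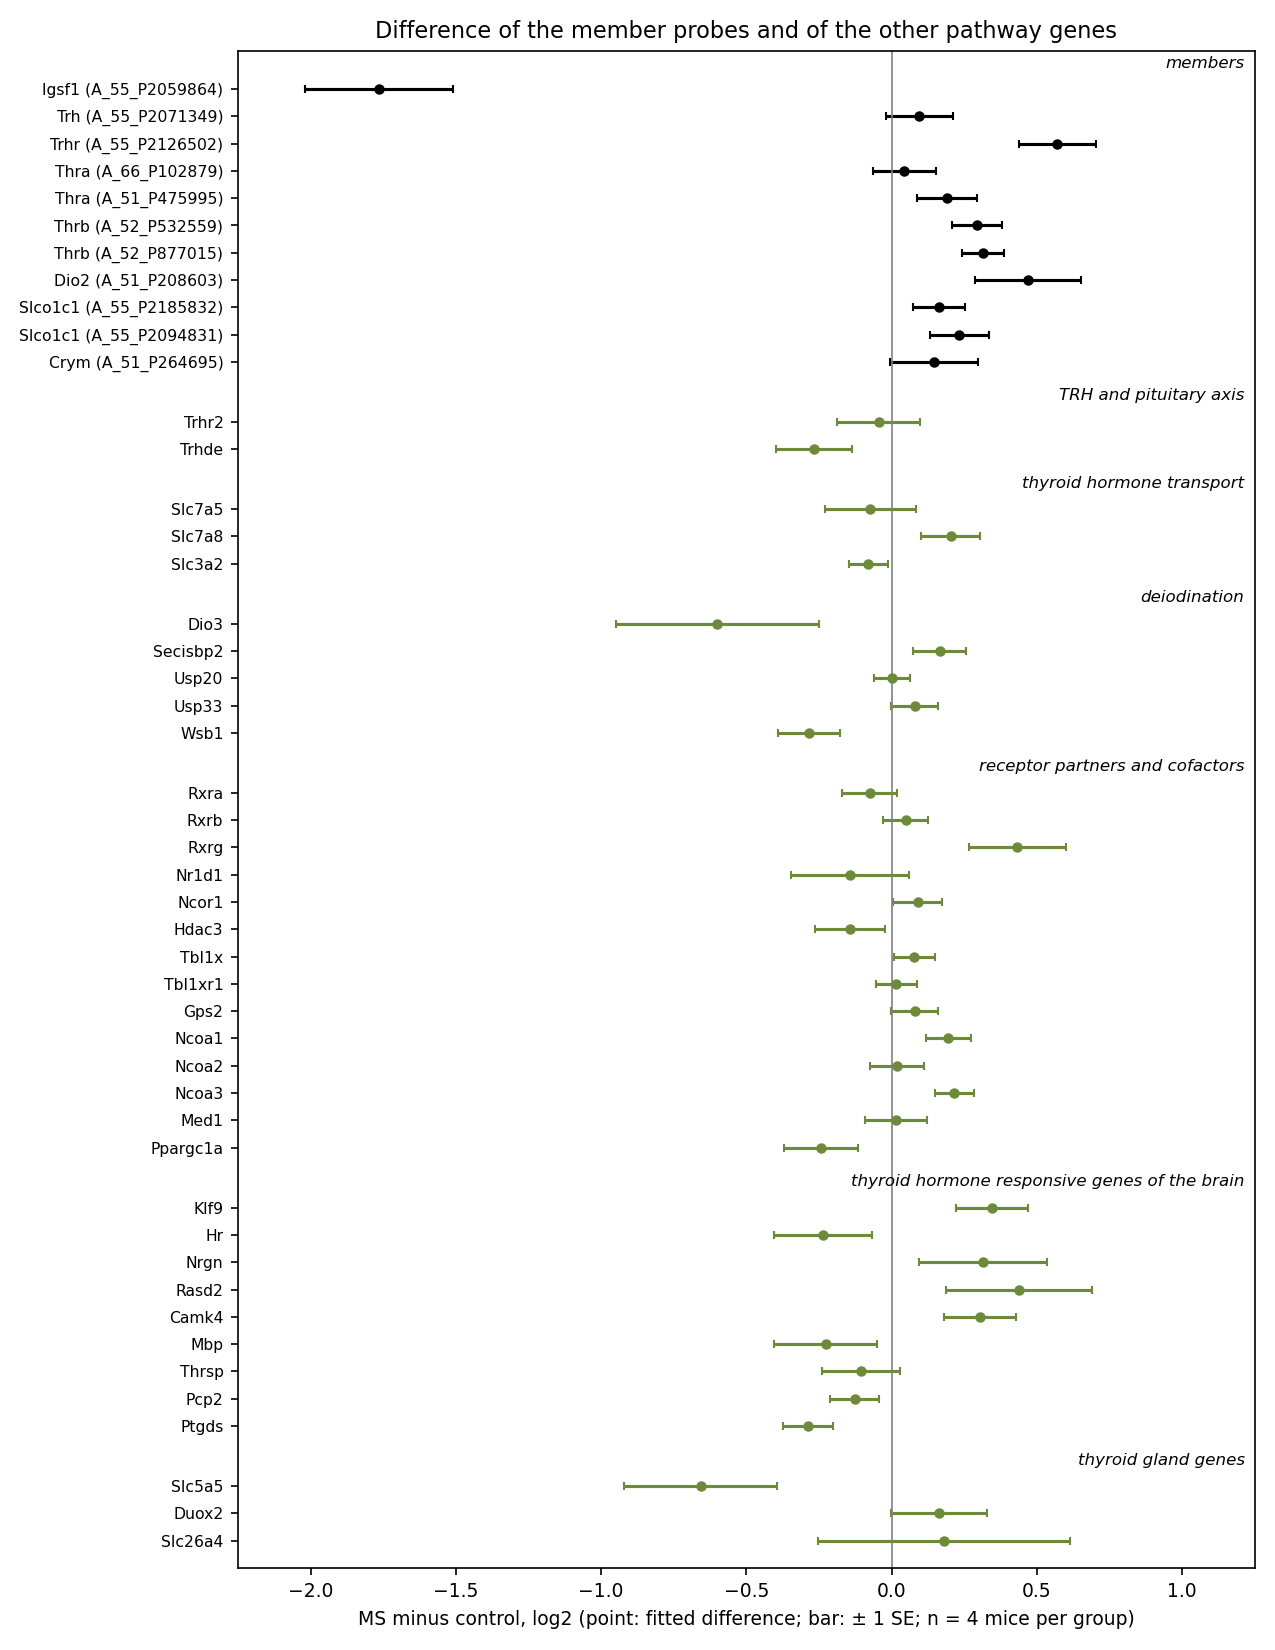
MS minus control on the log2 scale (x axis) for the 11 member probes (black, top) and 36 of the 39 tested genes of the pathway lists (green), as fitted difference ± 1 SE with 4 mice per group. Igsf1 lies alone on the left at -1.77, the remaining member probes lie between 0.04 and 0.57, and the pathway genes lie on both sides of 0.

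Markers of the tissue were read on the same arrays. All 10 medium spiny neuron markers, the defining genes of the NAc (among them Drd1, Drd2, Ppp1r1b and Adora2a), were well above background in all 8 mice. Their summed linear level ran between 877 and 1061 in MS mice and between 610.1 and 949.5 in control mice, each in units of the array's 75th percentile, and 10 of 10 had a positive difference (median 0.36). The genes listed as pallidal neuron markers went the other way. All 7 (Pvalb, Npas1, Lhx8, Kcnc2, Vamp1, Gbx2 and Nkx2-1) were lower in every MS mouse than in any control mouse, with a median difference of -1.24. Of all genes, 8.89% did not overlap in either direction. The list was chosen with results of these data known. The paper names Pvalb and Npas1 as changed, so nothing is read from that share. With normexp the dim Npas1, Gbx2 and Nkx2-1 differed by -1.43, -0.62 and -0.34, against -2.26, -1.17 and -0.59, and all 7 stayed negative. The summed level was 4.14 to 8.44 in MS mice and 10.3 to 17.5 in control mice. In bulk tissue, fewer cells of a type and less RNA per cell cannot be told apart. Which cells of the punch made these transcripts was not tested.

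Among 9 tested markers of the hypothalamus and preoptic area, 9 had a negative difference (median -0.33) and 3 did not overlap. Their summed level was 61.7 to 85.1 in MS mice and 88.0 to 105.3 in control mice. Most of this sum is Hap1, which averaged 5.76 in MS mice and 6.03 in control mice, with overlapping groups. Of the defining peptides of this area, Avp and the hypothalamic factor Sim1 were well above background in no mouse, and Oxt in 2 MS and 2 control mice. Pomc and Agrp overlapped, with differences of -0.08 and -0.33. Hcrt did not overlap, but its difference, -0.73, was -0.21 with normexp and -0.25 with the deposited values, and that of Pmch, -0.81, was -0.31 and -0.36. Astrocyte markers had 7 negative differences of 8 (median -0.33), 4 without overlap. The largest was that of Agt at -2.0 (-1.30 with normexp and -1.53 with the deposited values), while Aqp4, Slc1a3 and Gja1 differed by 0.06, -0.12 and -0.16. The list had a summed level of 37.0 to 41.6 in MS mice and 45.0 to 51.5 in control mice. In the septum list 3 of 4 were negative, with a summed level of 4.88 to 9.84 in MS mice and 8.35 to 12.7 in control mice. Oligodendrocyte markers had 5 of 5 negative differences, all overlapping. Blood vessel markers (5 of 7 positive) and those of choroid plexus, ependyma and tanycytes (5 of 8 positive) overlapped as well. By limma 0 of 58 tested markers passed the threshold, the lowest adjusted p being 0.063 for the astrocyte marker Agt, and 22 (37.9%) had an unadjusted p under 0.05, beside 14.1% of all probes tested. These lists were chosen with results of these data known, and the paper names Agt, Pvalb and Npas1 as changed, so nothing is read from that share. The part of these cell types in the Igsf1, Trhr and Thrb differences was not tested.

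Igsf1 followed several of these lists from mouse to mouse. Each list was scored in a mouse as the mean of its genes' levels, each centred on its own mean over the 8 mice. The hypothalamus and preoptic score was 0.06, -0.36, -0.33 and -0.30 in MS mice 1 to 4 and 0.05, 0.20, 0.08 and 0.60 in control mice 1 to 4, so that MS mouse 1 and control mouse 4, the highest of their groups in Igsf1, were also the highest of their groups here. Igsf1 correlated with this score at r = 0.94 over the 8 arrays, and the deviations from the group means at r = 0.94. The score holds Resp18, itself among the genes most like Igsf1 (r = 0.99). It also weights the dim Oxt, Hcrt and Pmch equally with the other genes. Among MS mice, Oxt was highest in mouse 1, at -4.23. With the medium spiny neuron score r was -0.85, and -0.79 for the deviations. With the astrocyte score r was 0.93 and with the pallidal score 0.85, but within groups these were 0.57 and 0.18. The 8 points share slide, scan and scaling, and fall into separate groups, so these are descriptions with no test.

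**Figure D3:**
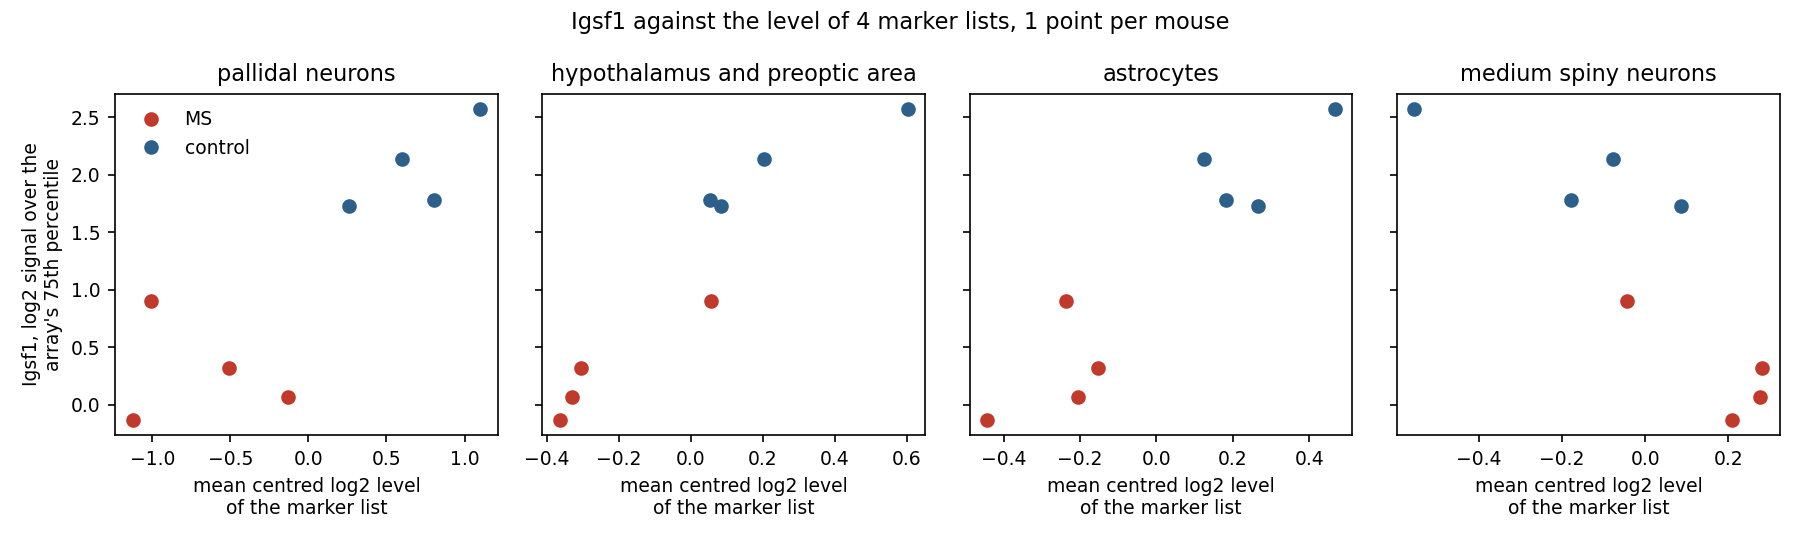
Log2 level of Igsf1 (y axis, over the array's 75th percentile) against the mean centred log2 level of 4 marker lists (x axis), 1 point per mouse, MS in red and control in blue. The points of the hypothalamus and preoptic area list order the mice within each group as Igsf1 does most closely (within-group r = 0.94), and those of the medium spiny neuron list run the opposite way (within-group r = -0.79).

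The other members followed these lists in various ways. Trhr correlated with Igsf1 at r = -0.84 over all 8 mice but at r = -0.26 within groups, and Thrb at -0.73 and 0.17, so that their opposition to Igsf1 lay between the groups rather than among the mice of a group. Dio2 correlated with the medium spiny neuron score at r = 0.84 (0.70 within groups). Thra correlated with the astrocyte score at r = -0.86 (-0.95 within groups). Thrb did so at -0.57 (0.76 within groups), and Trhr with the pallidal score at -0.63 (0.52 within groups), with opposite signs between and within the groups. Thrb and Slco1c1 correlated with each other at r = 0.85 (0.69 within groups).

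The genes whose pattern over the 8 mice was most like that of Igsf1, out of 14448, were Cops3, Abhd14b, Whrn, Resp18, Slc24a3, Slc6a11, Slc22a4, Tubb2a, Cib2 and Slc1a6, with r between 0.98 and 0.99 and within-group r between 0.84 and 0.96. All 10 were lower in every MS mouse than in any control mouse, as follows from their likeness to Igsf1. Resp18, an endocrine secretory protein that is also in the hypothalamic marker list, had a difference of -1.13 (SE 0.21). Slc6a11, a GABA transporter of astrocytes, had one of -1.01 (SE 0.20), and Whrn, a scaffold protein, one of -0.74 (SE 0.15). The smallest were those of Cops3 and Tubb2a, both -0.24.

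**Figure D4:**
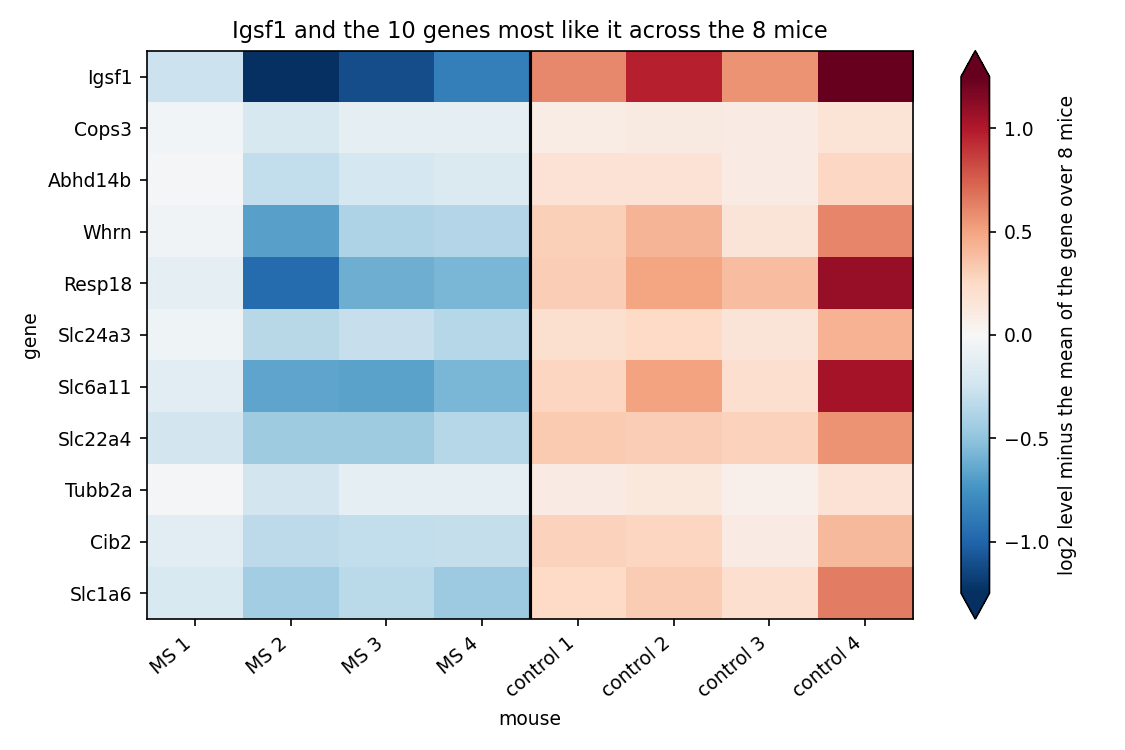
Log2 level of Igsf1 and of the 10 genes most like it (rows), each centred on its mean over the 8 mice (colour scale, values past its ends drawn in the end colour), with MS mice left and control mice right of the line. In all 11 rows MS mouse 1 is the highest of the MS mice and control mouse 4 the highest of the control mice.

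For the other members the nearest genes by the same measure were different ones. Dio2 was closest to Incenp (r = 0.99), Cep126 (0.98) and Rxrg (0.98, 0.96 within groups), the last of these also a gene of the pathway lists. Trhr was closest to Zcchc4 (0.97), Ift88 (0.94) and Syt12 (0.94). Thrb was closest to Uggt1 (0.97), Pnn (0.96) and Mettl23 (0.96), and Thra to Tdrp (0.97) and Fnip1 (0.97). Slco1c1 was closest to Tbc1d14 (0.99), Crym to Retn (0.97) and Ak5 (0.96), and Trh to Fam171a2 (0.97). With 8 arrays and 14448 genes, high values of r arise for any gene, so these lists are a description of these mice.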

How the data were processed

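NAc RNA of 4 MS and 4 control mice was read on 8 one-colour Agilent arrays, with 1 array per mouse. The authors deposited scanner files, each with a background-corrected intensity per spot, made with Feature Extraction 10.10.1.1 per the file headers, which name array design 028005, whereas the methods name another design. The deposited table of log2 values, 31261 probes with equal maxima on all arrays, was used only as an alternative, because the authors had normalised and filtered it. Intensities were averaged per probe, without control and outlier spots, and then taken to log2. The log2 of the array's 75th percentile, over all spots but controls, was subtracted. Probes well above background on at least 4 arrays were fitted with limma 3.58.1 (R 4.3.3), with group as the only term and Benjamini-Hochberg adjustment over all 33111 probes at 0.05. The fit was tested on simulated data first. A gene was read by its brightest tested probe. The precision of array values is limited by the number of arrays.

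The members, the gene lists and the rules were chosen with earlier results of these data known. Named were all members with every probe, from each pathway list the genes past the threshold, up to 2 without overlap and the 2 of highest level, and the 10 or 5 genes closest to a member by Pearson correlation. Other genes are named as examples of a list, and 3 pathway genes that the rule names are not reported here singly, though they are in the counts. Of 55681 probes, 27235 were named by accession, 3581 by a current symbol, 565 by an older one and 24300 by the array design alone. The alternatives were normexp background correction, median and quantile scaling, the deposited values, other filters, trend and robust moderation, slide row or column as a block, and leaving out each mouse. Nothing says that the mice came from separate litters, so p-values measure the spread between these mice. Only the NAc was analysed here.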

Additional observations from a re-analysis of the deposited data

Results flagged for a closer look

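In 52 groups of 4 mice (13 member probes and the named pathway genes, MS and control mice apart), 3 held a mouse set apart from the others by Dixon's test at 95%, where chance gives about 1 in 20. In MS mouse 4 the dim Igsf1 probe A_55_P2059860 was at -2.33, while the other MS mice lay between -5.72 and -5.46. It was the only MS mouse in which that probe was well above background, and its signal with the bright Igsf1 probe, 0.32, lay within the range of the other MS mice. Control mouse 4 was the lowest control mouse with both Thra probes, at 1.90 with A_66_P102879 against 1.99 to 2.00 in the other control mice, and at 4.80 with A_51_P475995 against 5.10 to 5.16. This mouse also had the largest share of probes well above background (69.7%), the lowest medium spiny neuron score (-0.56) and the highest pallidal score (1.1). The part of these in the Thra values was not tested.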

How the results depend on the processing

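The Igsf1 difference stayed between -1.77 and -1.65 under all alternatives that kept the 8 mice, and between -1.97 and -1.59 when 1 mouse was left out. Within slide column 2 it was -0.83 and within column 4 -2.71, each from 1 mouse per group. Of 173 other values of member probes, 172 moved by less than 1 SD between mice. The exception was Thrb A_52_P877015, at 0.23 with normexp. The only change of sign was Thra A_66_P102879, at -0.02 without MS mouse 2. Counted after seeing the data, member probes past the threshold numbered 0 as reported, 2 (Igsf1 and Trhr) with normexp, the deposited values or trend and robust moderation, 1 (Igsf1) with median scaling or among probes well above background on all 8 arrays, and 0 under the other alternatives. Igsf1 and Trhr were chosen with this contrast known, so these counts are a description only. The count of pathway genes past the threshold was 0 under every alternative run. The count over all probes, 1, depended strongly on the setting: it was 486 with normexp, 81 with median scaling, 375 with the deposited values, 113 for probes well above background on all 8 arrays, 504 with trend and robust moderation, 0 with no filter on dim probes, 0 with the slide column as a block, and 0 to 37 when 1 mouse was left out, 37 without control replicate 3. The cause was not tested. No scaling moved the median difference of all probes by over 0.1. Chosen after seeing the data, leaving out control mouse 4 gave score differences of 0.24 for medium spiny neurons, -1.25 for pallidal neurons, -0.35 for the hypothalamus and preoptic area and -0.45 for astrocytes, against 0.36, -1.38, -0.47 and -0.52 with it. No pairing by replicate number was possible because the labels give no replicate numbers shared between the groups. The slide column, which holds 1 mouse of each group, was used as a block instead and left the Igsf1 difference at -1.77 (SE 0.29).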
